A study of Mus musculus with 3 samples.

Results

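The loci of 6 transcription factors of the pre-B-cell checkpoint, Bach2, Bcl6, Irf4, Irf8, Foxo1 and Prdm1, were examined in untreated cultures of mouse pre-B-cell acute lymphoblastic leukaemia driven by the Bcr-Abl tyrosine kinase. Chromatin immunoprecipitation with sequencing gave 1 library each for H3K27ac (acetylation of lysine 27 of histone H3), for H3K4me3 (trimethylation of lysine 4 of the same histone) and for a control immunoglobulin (IgG), all from the same kind of culture. The sources used here do not say whether the culture is 1 clone. Every value below comes from these leukaemia cells, with no normal pre-B cell beside them. The members were all called peaks that overlap a fixed window around each gene on the mouse build mm9: chr4:32300000-32690000 for Bach2, chr16:23940000-24010000 for Bcl6, chr13:30810000-30880000 for Irf4, chr8:123230000-123340000 for Irf8, chr3:52040000-52180000 for Foxo1 and chr10:44130000-44270000 for Prdm1. They numbered 67 of 47610 peaks, 51 of 29468 for H3K27ac and 16 of 18142 for H3K4me3.

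H3K27ac marks active promoters and enhancers, and H3K4me3 marks promoters. At the pre-B stage a cell stops dividing after signals from the pre-B-cell receptor, rearranges its light chain genes and is removed if this fails. Bach2, a repressor of the basic leucine zipper family, and Bcl6, a zinc-finger repressor that protects pre-B cells from the p53 response, stand on opposite sides of that decision. Irf4 and Irf8 are related interferon regulatory factors that favour the end of division and light chain rearrangement. Foxo1 is a forkhead factor that activates the recombination genes and is held out of the nucleus by kinase signalling. Prdm1 (Blimp-1) is the repressor that drives plasma cell differentiation, and both Bach2 and Bcl6 are known to repress it.

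Each mark has 1 library and hence no replicate error, so values are described and not tested. Sequencing depth is unknown. The IgG library has no peak list here, so its signal was not analysed. No mm9 annotation was at hand: peaks are named by position, which of them lies at a start site was not assigned, and the cell type could not be checked by its marker genes. Some peaks may belong to a neighbouring gene. In the order of genes, the nearest protein-coding neighbours are Map3k7 and Gja10 for Bach2, Rtp2 and Lpp for Bcl6, Dusp22 and Exoc2 for Irf4, Cox4i1 and Foxf1 for Irf8, Maml3 and Cog6 for Foxo1, and Atg5 and Prep for Prdm1.

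Reference promoters of all 6 genes were read from RefSeq on build GRCm38.p6, a later build than that of the peaks, so they are shown as the genes' own regulatory sequence and not as sequence under a peak. Each run below is the 250 bases before an annotated start site, 5′ to 3′ in the gene's direction. Capitals mark matches, on either strand, to any of 6 motifs: TGTTTAC (forkhead type), TTCCNNGAA (Bcl6 and STAT type), CAGGTG (E-box), GGAAGT (ETS type), the interferon regulatory factor type (GAAA, any 2 bases, GAAA) and the Maf recognition element, the type bound by Bach2. The 3 shown are those in which a motif of the factors' own families or of STAT type was matched.
Bcl6, downstream one of 2 start sites, minus strand, chr16:23981284-23981533: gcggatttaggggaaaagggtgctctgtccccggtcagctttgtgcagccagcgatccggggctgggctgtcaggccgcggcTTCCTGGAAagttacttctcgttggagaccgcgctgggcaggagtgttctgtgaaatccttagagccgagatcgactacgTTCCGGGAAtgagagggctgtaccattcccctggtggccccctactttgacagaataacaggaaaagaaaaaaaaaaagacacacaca
Irf8, upstream one of 2 start sites, plus strand, chr8:120736108-120736357: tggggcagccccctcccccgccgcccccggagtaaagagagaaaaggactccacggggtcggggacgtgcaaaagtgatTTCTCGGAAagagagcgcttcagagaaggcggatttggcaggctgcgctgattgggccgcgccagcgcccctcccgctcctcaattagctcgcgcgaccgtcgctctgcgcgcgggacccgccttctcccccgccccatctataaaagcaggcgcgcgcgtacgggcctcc
Prdm1, minus strand, chr10:44458749-44458998: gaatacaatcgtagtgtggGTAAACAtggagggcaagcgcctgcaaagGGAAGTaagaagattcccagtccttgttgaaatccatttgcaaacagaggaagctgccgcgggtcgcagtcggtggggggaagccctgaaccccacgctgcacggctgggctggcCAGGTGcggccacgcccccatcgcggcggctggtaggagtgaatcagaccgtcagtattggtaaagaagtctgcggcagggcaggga

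The Bcl6 sequence held the Bcl6 and STAT type motif at 2 positions, TTCCTGGAA and TTCCGGGAA, which begin 168 and 88 bases before the start site and match on both strands. The Irf8 sequence held it once on the minus strand, as TTCCGAGAA, beginning 171 bases before the start site. Among all 32851 promoters in the table, 4.06% held this motif. The Prdm1 sequence held the forkhead type motif on the minus strand 231 bases before the start site, a motif found in 3.17% of promoters, together with an E-box (17.2% of promoters) and an ETS type match (19.7%). The downstream start site of Irf8 had an E-box. No match to any of the 6 motifs was found in the 250 bases searched for Bach2, Irf4, Foxo1 or the upstream start site of Bcl6. The interferon regulatory factor type motif (2.98% of promoters) and the Maf recognition element (0.134%) were matched in none of the 8 sequences. The promoters also differed in CpG dinucleotides, the sites at which DNA is methylated. The upstream Irf8 promoter held 29 in its 250 bases, the upstream Bcl6 promoter 21 and the Foxo1 promoter 20, against a median of 6 over all promoters. Prdm1 had 15, the downstream Bcl6 promoter 13 and Irf4 had 11. The downstream Irf8 promoter, with 8, and the only listed Bach2 promoter, with 7, lay near the median. Start sites that are not listed were not searched. The Bach2 values therefore need not describe a promoter under its wide H3K4me3 peaks.

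Both marks were present at each of the 6 loci, including Prdm1. Each window held at least 1 H3K4me3 peak with a score of 3100 or more, a value at which many scores are tied and which is called the ceiling here. In all, 8 of the 16 H3K4me3 peaks were at or above it, a share of 50% (exact 95% binomial interval 24.7 to 75.3%) that lies at the 50.3% of the whole list. Among the H3K27ac peaks 14 of 51 reached the ceiling, or 27.5% (interval 15.9 to 41.7%), against 24.1% of the list. Of these 14, 2 had no H3K4me3, a peak of Irf4 and a peak of Irf8 (14.3%, interval 1.78 to 42.8%), against 9.18% of the 7106 in the list. All intervals here and below treat peaks as independent, which neighbours at 1 locus are not, and cover counting error only. They are therefore no test of an excess over the list. Each of the 3 intervals above included the share of the list.

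The loci held many H3K27ac peaks without H3K4me3, although their distance from the nearest H3K4me3 peak was not measured. Of the 51 H3K27ac peaks, 35 did not overlap H3K4me3, or 68.6% (interval 54.1 to 80.9%), against 47.7% of the list. Of these 35, 13 were at Bach2 and 9 at Irf8, so the share rests largely on neighbouring peaks of these loci. All 16 H3K4me3 peaks overlapped H3K27ac, against 86.1% of the list. The count of 0 H3K4me3 peaks without H3K27ac among 16 allows a share of up to 18.8% when the limit is set at 3 peaks, and up to 20.6% by the exact interval, and both include the 13.9% of the list. The H3K27ac peaks without H3K4me3 had a median width of 1098 bp and a median score of 138, both somewhat below the 1252 bp and 188 of such peaks in the list. The median width of the 16 H3K27ac peaks that met H3K4me3 was 3754 bp, above the 2245 bp of such peaks in the list. The share without H3K4me3 also lay above that of the list under both other settings for which it was computed, but the count depends on low-scoring peaks. With neighbouring peaks joined, 24 H3K27ac peaks in the windows had no H3K4me3, but the share was not computed. When only scores of at least 100 were kept in both lists, 22 of 35 H3K27ac peaks in the windows had no H3K4me3 (62.9%, against 43.6% of the list). With H3K27ac limited to as many top-scoring peaks as the H3K4me3 list holds, 12 of 25 had none (48.0%, against 27.7% of the list).

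**Figure D1:**
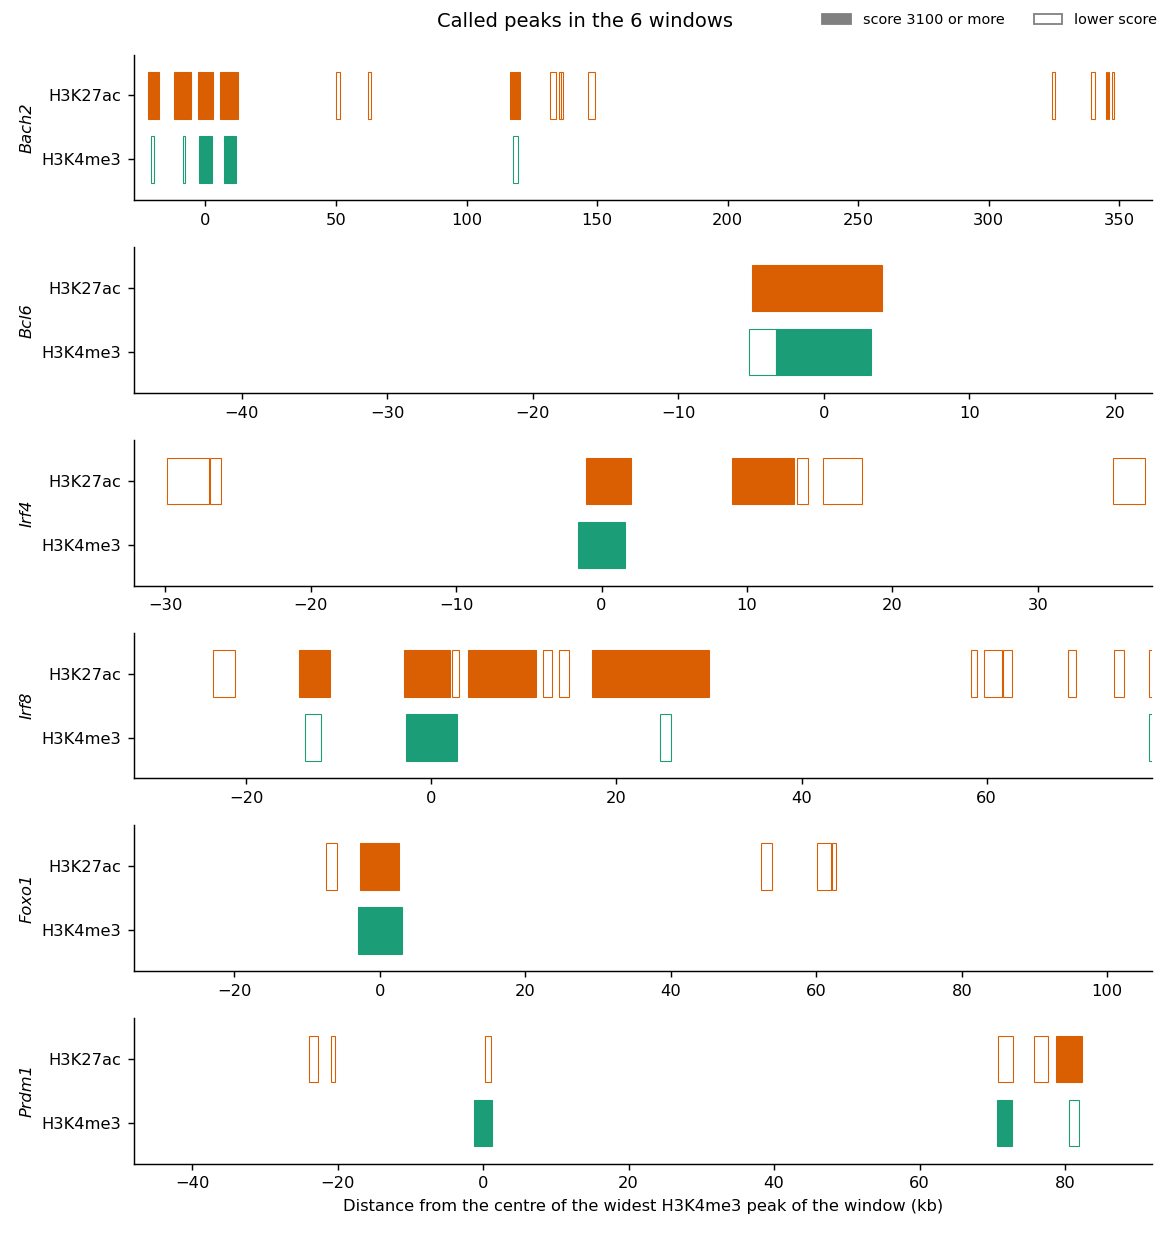
Called H3K27ac (upper bars) and H3K4me3 (lower bars) peaks in each window, drawn to scale by distance in kb from the centre of that window's widest H3K4me3 peak, with filled bars for scores of 3100 or more and open bars for lower scores. Bach2 and Irf8 have several filled H3K27ac bars, Bcl6 has a single one, and the bar over the widest H3K4me3 peak of Prdm1 is narrow and open.

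The extent of acetylation differed widely between the loci. H3K27ac peaks covered 40.8 kb of the Bach2 window and 39.2 kb of the Irf8 window, followed by 16.6 kb at Irf4, 10.8 kb at Foxo1, 10.2 kb at Prdm1 and 8.94 kb at Bcl6. The windows are of unequal length, and as a share of the window Irf8 came first with 35.7%, then Irf4 with 23.7%, Bcl6 with 12.8%, Bach2 with 10.5%, Foxo1 with 7.69% and Prdm1 with 7.27%. H3K4me3 ranged from 3.32% of the window at Bach2 to 11.9% at Bcl6. The length ratio of H3K27ac to H3K4me3 was therefore highest at Irf4 (5.17) and Irf8 (4.42), lower at Bach2 (3.16), Foxo1 (1.79) and Prdm1 (1.77), and near 1 at Bcl6 (1.07). Bach2 and Irf8 were the first 2 loci by H3K27ac length under each of the alternatives run, but their order changed when neighbouring peaks were joined, when the windows were widened and when the H3K27ac list was shortened.

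**Figure D2:**
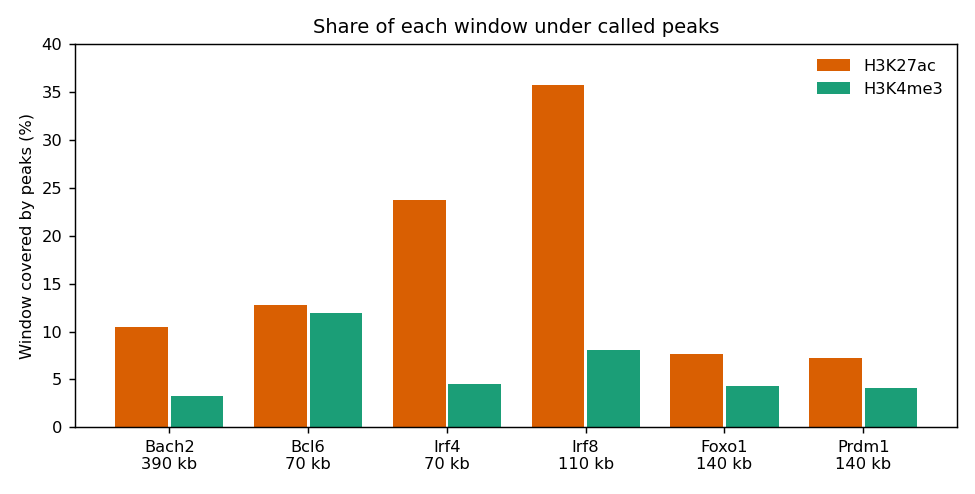
Percent of each window covered by H3K27ac (orange) and H3K4me3 (green) peaks, with the window's length in kb under its name. The H3K27ac bar of Irf8 reaches 35.7% and that of Prdm1 7.27%, while at Bcl6 the bars stand at 12.8 and 11.9%.

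At Bach2 the marks formed a cluster with a pair of wide H3K4me3 peaks side by side. The window held 18 H3K27ac and 5 H3K4me3 peaks. The wider H3K4me3 peak (chr4:32324840-32329812, 4973 bp) lay wholly under an H3K27ac peak of 5879 bp (chr4:32324390-32330268). The other (chr4:32334396-32338958, 4563 bp), 4583 bp further along, lay wholly under an H3K27ac peak of 6409 bp (chr4:32333417-32339825), the widest at the locus. All 4 of these peaks were at the ceiling, and each of the H3K4me3 peaks was wider than at least 96.6% of its list.

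On the other side of this pair were acetylated sites with much less H3K4me3. The peak at chr4:32315708-32321891 measured 6184 bp and was at the ceiling, but the H3K4me3 peak within it (chr4:32318864-32319394) was 531 bp wide, scored 75.7 and took up 8.59% of its length. A further ceiling peak of 3925 bp (chr4:32305513-32309437) held an H3K4me3 peak of 1072 bp (chr4:32306526-32307597) with a score of 267. The last H3K27ac peak at the ceiling, of 3584 bp (chr4:32444125-32447708), lay 119 kb from the widest H3K4me3 peak in the direction in which Bach2 is read, and held an H3K4me3 peak of 1793 bp (chr4:32445176-32446968) with a score of 971. At these 3 ceiling sites H3K4me3 thus covered 8.59, 27.3 and 50% of the acetylated length.

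The other 13 H3K27ac peaks of Bach2 had no H3K4me3 and scored 50.02 to 812. The widest was 2654 bp (chr4:32459106-32461759), 133 kb from the widest H3K4me3 peak. At the far end of the window 5 narrow peaks, with scores from 50.31 to 277, lay 325 to 348 kb away. H3K27ac at Bach2 was thus concentrated at 1 end of the window, where 6 peaks within 34.3 kb summed to 23.4 kb.

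At Bcl6 the marks nearly coincided in a single block. The window held 1 H3K27ac peak, of 8939 bp and at the ceiling (chr16:23982486-23991424), wider than 98.6% of the H3K27ac list. It covered the whole of a ceiling H3K4me3 peak of 6520 bp (chr16:23984150-23990669) and 88.0% of an adjoining one of 1845 bp (chr16:23982264-23984108) with a score of 2354. Only 41 bp separate these H3K4me3 peaks, and joined they form a domain of 8.41 kb, the 49th widest of 17471. Bcl6 was the only one of the 6 windows without an H3K27ac peak outside H3K4me3.

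Irf4 contrasted with Bcl6, with most of its H3K27ac length in peaks that did not overlap H3K4me3. Its only H3K4me3 peak, at the ceiling, was 3205 bp (chr13:30840529-30843733), and an H3K27ac peak of 3101 bp (chr13:30841042-30844142), also at the ceiling, covered 84.0% of it. The acetylated stretch was shifted in the direction in which Irf4 is read: it began 513 bp after the start of the H3K4me3 peak and ended 409 bp beyond its end. The widest H3K27ac peak of the locus, 4208 bp and at the ceiling (chr13:30851128-30855335), lay 11.1 kb along in that direction and had no H3K4me3. The other 5 H3K27ac peaks scored 57.7 to 1037 and also had none. Together, the 6 peaks without H3K4me3 made up 81.3% of the H3K27ac length at Irf4, compared with 50.5% at Foxo1, 43.9% at Irf8, 37.3% at Prdm1, 36.3% at Bach2 and 0% at Bcl6. These shares leave out the whole length of any peak that shared 1 bp with H3K4me3, such as the widest Irf8 peak, 9.60% under H3K4me3. H3K4me3 covered 8.87 kb of the Irf8 window and 12.9 kb of the Bach2 window, against 39.2 and 40.8 kb for H3K27ac. Counted by bases, most acetylation thus lay outside H3K4me3 there too.

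Irf8 had 14 H3K27ac peaks, or 12.7 per 100 kb of window, and Irf4 had 10.0 per 100 kb. This order turned when only scores of at least 100 were kept, with 8.18 per 100 kb at Irf8 and 8.57 at Irf4, and with the shortened H3K27ac list, with 6.36 and 7.14. Its widest H3K4me3 peak (chr8:123259350-123264847, 5498 bp, at the ceiling) was covered to 96.8% by an H3K27ac peak of 5010 bp (chr8:123259165-123264174), whose score of 3201 lay above the ceiling, and by a narrow one with a score of 74.5. In the direction in which Irf8 is read followed a ceiling H3K27ac peak of 7362 bp without H3K4me3 (chr8:123266066-123273427), wider than 97.7% of the list. Further along lay the widest H3K27ac peak of all 6 loci, 12595 bp and at the ceiling (chr8:123279480-123292074). An H3K4me3 peak of 1209 bp with a score of 177 (chr8:123286792-123288000) took up 1209 bp of it. That low cover is not rare among very wide peaks: 307 in the list reached 10000 bp, and 23.5% of those had no more of their length under H3K4me3.

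On the other side of the widest Irf8 H3K4me3 peak, a ceiling H3K27ac peak of 3346 bp (chr8:123247784-123251129) held an H3K4me3 peak of 1752 bp (chr8:123248437-123250188) with a score of 1129. The fourth H3K4me3 peak (chr8:123339589-123340623, 1035 bp, score 278) lay 78.0 kb away across the window's edge, with an H3K27ac peak of 1418 bp and score 310. The remaining 8 H3K27ac peaks lay outside H3K4me3 and scored 70.8 to 1819. Wide acetylation with little H3K4me3 was thus found at Bach2, Irf4 and Irf8. In the windows, 9 H3K27ac peaks reached 4000 bp (17.6%, interval 8.40 to 30.9%, against 10.9% of the list), and 4 of them had under 10% of their length under H3K4me3 (44.4%, interval 13.7 to 78.8%), against 24.9% of the 3202 such peaks in the list, a share within the interval.

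Foxo1 had a single, wide H3K4me3 peak and 4 acetylated sites below the ceiling apart from it. The H3K4me3 peak measured 6010 bp (chr3:52070788-52076797), was at the ceiling and was wider than 99.1% of the list. The H3K27ac peak over it, also at the ceiling, was narrower at 5332 bp (chr3:52071072-52076403) and lay wholly inside it, leaving 284 bp and 394 bp of H3K4me3 on either side. The other 4 H3K27ac peaks had no H3K4me3, scored 63.9 to 669 and made up 50.5% of the H3K27ac length at the locus. The widest of them, 1997 bp (chr3:52133832-52135828), lay 61.0 kb along in the direction in which Foxo1 is read.

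Prdm1 carried strong H3K4me3 with little acetylation at 1 site and strong marks of both kinds at another. Its widest H3K4me3 peak (chr10:44176734-44179231, 2498 bp) scored 3153, above the ceiling at which the highest other H3K4me3 scores of the 6 windows are tied. Whether a score above the ceiling means a stronger peak is unknown. The only H3K27ac peak there was 767 bp wide (chr10:44178272-44179038) and scored 67.5. It covered 30.7% of the H3K4me3 peak, compared with 84.0 to 100% at the widest H3K4me3 peaks of the other 5 loci.

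That combination was infrequent in the list, although this measure was chosen after its value was seen. The list held 9117 H3K4me3 peaks at or above the ceiling. Of these, 0.285% (26 peaks) were covered by H3K27ac to no more than 30.7%, and the median cover was 90.3% (quartiles 82.1 and 97.9%). In 0.537% the best overlapping H3K27ac peak scored under 100 or was missing. With scores of at least 100 required, the H3K27ac peak drops out and the site has H3K4me3 alone.

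**Figure D3:**
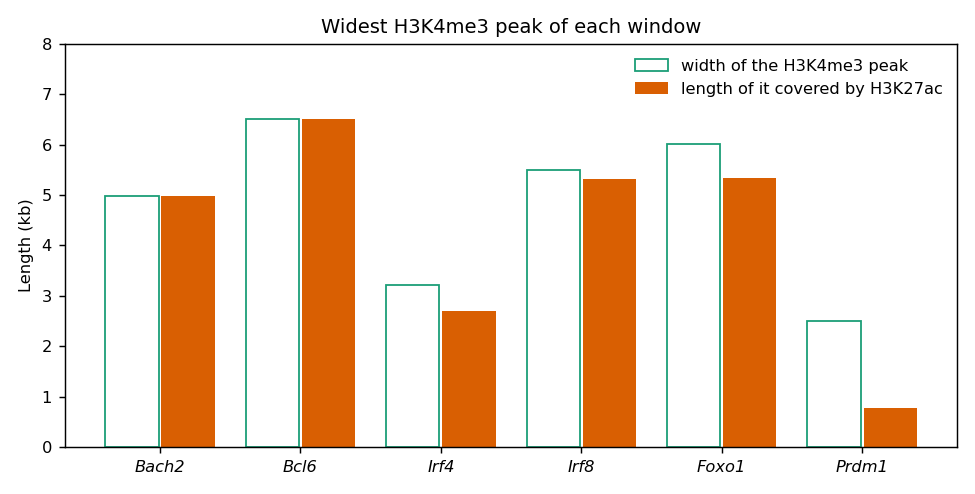
Width in kb of the widest H3K4me3 peak of each window (open green bars) and the length of it covered by H3K27ac (filled orange bars). H3K27ac covers 84.0 to 100% at the first 5 loci and 30.7% at Prdm1.

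At a distance of 71.7 kb from this peak, on the side from which Prdm1 is read, both marks were strong. A ceiling H3K4me3 peak of 1998 bp (chr10:44248694-44250691) was covered to 97.4% by an H3K27ac peak of 2144 bp with a score of 2649. Further along in the same direction, the widest H3K27ac peak of the locus, 3475 bp and at the ceiling (chr10:44256797-44260271), held an H3K4me3 peak of 1246 bp with a score of 418 (chr10:44258595-44259840). Between them lay the widest Prdm1 H3K27ac peak without H3K4me3, 2001 bp with a score of 341 (chr10:44253692-44255692). These 3 H3K27ac peaks summed to 7.62 kb of the 10.2 kb at the locus. On the opposite side, the other 2 H3K27ac peaks scored 113 and 59.8 and had no H3K4me3. Prdm1 was the only window with no peak of either mark of 4000 bp or more.

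Broad H3K4me3 domains were found at 4 of the 6 loci. H3K4me3 peaks within 1000 bp were joined into 17471 domains, and those of at least 4435 bp, the widest 5.01%, were called broad. The windows held 5 broad domains among 15: both of the wide Bach2 peaks, the joined Bcl6 block (8.41 kb), the Foxo1 peak and the widest Irf8 peak. The widest domains of Irf4 (3.21 kb) and Prdm1 (2.50 kb) were below the limit. The Bach2 domain of 4563 bp was the one nearest above it. Counted as called peaks, 5 of the 16 H3K4me3 peaks measured 4000 bp or more (31.2%, interval 11.0 to 58.7%), against 5.83% of the list. A broad domain with another within 10000 bp, as at Bach2, was the case for 37 of the 876 broad domains (4.22%).

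Long clusters of acetylation were found at 2 loci. When H3K27ac peaks within 12.5 kb were stitched into 16134 regions, 1032 had more than 11.2 kb of summed peak length and were called long. The region at Irf8 (chr8:123208656-123292074) had 13 peaks with a summed 43.2 kb, which placed it 41st, and it began outside the window. The Bach2 region (chr4:32305513-32339825), with 6 peaks and 23.4 kb, was 227th. Just under the limit were a region of 4 peaks at Irf4 (chr13:30841042-30860030, 10.8 kb, place 1115) and the second Bach2 region (chr4:32444125-32476466, 10.2 kb, place 1219). Of the 51 H3K27ac peaks, 14 lay in long regions, or 27.5%, against 21.0% of the list. The largest regions of Bcl6 (8.94 kb), Prdm1 (7.62 kb) and Foxo1 (6.78 kb) were shorter.

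To compare the loci over equal lengths, H3K27ac was summed within 50 kb of the centre of each widest H3K4me3 peak and set beside the same sum around each of the 9117 H3K4me3 peaks that scored 3100 or more, a measure added after the data were seen. The medians over all, each taken separately, were 7.49 kb of H3K27ac, 4 peaks and 1 peak without H3K4me3. Irf8 had 41.0 kb in 12 peaks, and 0.746% of the 9117 had as much. Bach2 had 23.6 kb and Irf4 16.6 kb, as much as 6.86 and 16% of them had. Bcl6, with 8.94 kb, and Foxo1, with 6.78 kb, lay on either side of the median. Prdm1, with 2.56 kb, was the lowest of the 6 at this distance, and 88.1% of the 9117 had as much or more. Within 100 kb, which takes in its strong sites 71.7 to 81.2 kb away, Prdm1 had 12.5 kb, above Foxo1 (11.6 kb) and Bcl6 (10.6 kb), and 52.3% of the 9117 had as much. Irf4 was nearer the top by sites without H3K4me3, with 6 such peaks, a number reached around 3.55%, and Irf8 had 8, reached around 1.01%. Within 25 kb Bach2 had 23.4 kb, as much as 1.32% of the 9117 had. The shares at that distance were 0.483% for Irf8 and 14.8% for Irf4. Neighbouring H3K4me3 peaks share the same H3K27ac in this measure, so the 9117 sums are not independent.

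**Figure D4:**
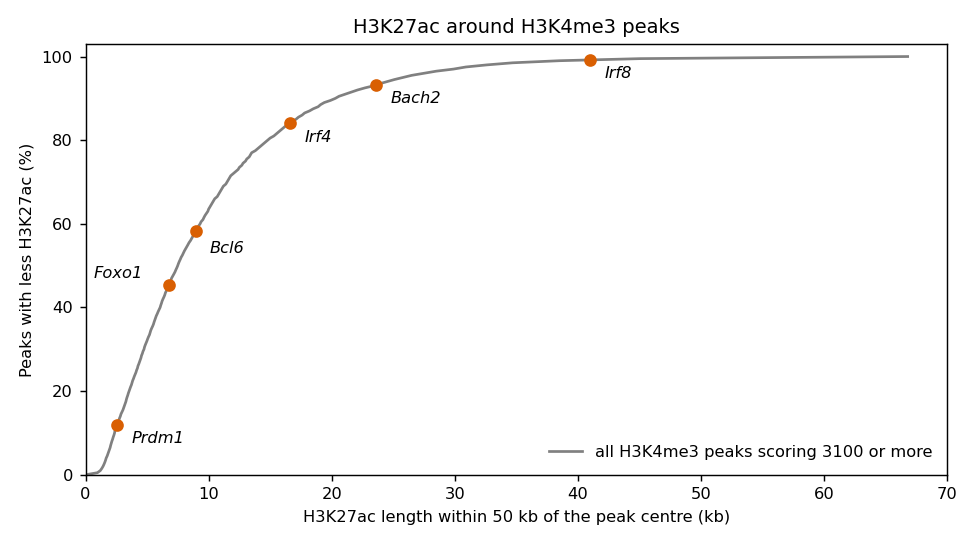
Percent of the 9117 H3K4me3 peaks scoring 3100 or more (vertical axis) that have less H3K27ac within 50 kb than the length in kb on the horizontal axis (grey line), with the widest H3K4me3 peak of each locus as a point. Irf8 lies near the top at 41.0 kb and Prdm1 near the bottom at 2.56 kb, while Bcl6 and Foxo1 lie near the median of 7.49 kb.

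Many of the weakest H3K27ac calls in these windows lay close to another. Of the 51 H3K27ac peaks, 16 scored under 100, or 31.4% (interval 19.1 to 45.9%), against 17.7% of the list. Another H3K27ac peak lay within 1000 bp of 11 of these 16 (68.8%, interval 41.3 to 89.0%), compared with 37.6% of all 5226 such peaks. For 9 of the 16 a neighbour so close had the higher score (56.2%, against 33.5% of the 5226). At Bach2 a peak of 501 bp with a score of 50.02 ended 8 bp before the 6184 bp peak at the ceiling, and a peak of 552 bp with a score of 51.7 ended 5 bp before the 6409 bp peak. Joining neighbours within 1000 bp reduced the H3K27ac peaks from 18 to 14 at Bach2, from 14 to 9 at Irf8 and from 7 to 5 at Irf4, and left 6 at Prdm1. Whether such neighbours are separate sites was not tested. These counts were made after the data were seen.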

How the data were processed

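The authors called peaks with MACS on mouse build mm9, per the submitters' processing notes. The sources used here do not give its version, the aligner or the read filters. The authors deposited 1 peak list per mark, each from 1 library, with a score per peak that no header or label defines. The lowest score was 50.01 in both lists. Scores of exactly 3100 were given to 6863 H3K27ac and 9042 H3K4me3 peaks, and 243 and 75 were higher. Whether these are stronger is unknown, so scores were used only within a list. Depth is unknown, and a deeper library yields more weak peaks.

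Groups were taken from the sample titles. Positions are counted from 1. Marks overlapped when they shared at least 1 bp. Covered length counts only bases inside a window, and percentages carry exact Clopper-Pearson intervals. Peaks named by position were all H3K4me3 peaks and, per window, all H3K27ac peaks at or above 3100, the widest, and the widest without H3K4me3; others are named where a comparison turns on them. The genes, windows and measures were chosen with earlier results of these data known. The planned list of other pathway genes was not analysed, since it needs an mm9 annotation. Code was tested on simulated data: 2500 placed peaks gave 0 wrong overlap calls. They were placed inside H3K27ac peaks or in gaps between them, so partial overlap at an edge was not tried. Software was SciPy 1.17.1, matplotlib 3.10.9, pandas 2.3.3 and NumPy 2.4.6 under Python 3.11.15.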

Additional observations from a re-analysis of the deposited data

How the results depend on the processing

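No paired analysis was possible because each mark has 1 library. Of 120 values recomputed under other settings, 95 stayed within 1.5 times the reported value. With scores of at least 100, H3K27ac peaks became 11 at Bach2 (from 18) and 9 at Irf8 (from 14), those without H3K4me3 became 22 (from 35), and 1 H3K4me3 peak had no H3K27ac (from 0). With the H3K27ac list cut to the length of the other, H3K27ac peaks became 7 at Bach2, 7 at Irf8, 2 at Foxo1 (from 5) and 3 at Prdm1 (from 6), those without H3K4me3 became 12, and 2 H3K4me3 peaks had no H3K27ac. Joining neighbours gave 9 H3K27ac peaks at Irf8 and 1 H3K4me3 peak at Bcl6 (from 2). With windows widened by 50 kb, which of the added peaks belong to neighbouring genes was not tested, and H3K4me3 peaks became 8 at Bach2 (from 5), 2 at Irf4 (from 1), 7 at Irf8 (from 4), 4 at Foxo1 (from 1) and 5 at Prdm1 (from 3), of which 3 in all had no H3K27ac. There H3K27ac peaks became 12 at Irf4 (from 7) and 8 at Foxo1, H3K27ac length 26.2 kb at Irf4 and 23.1 kb at Foxo1, and H3K4me3 length 21.6 kb at Bach2, 5.23 kb at Irf4 and 15.7 kb at Irf8. Requiring an overlap of 50% of the shorter peak, or a midpoint inside the window, moved no value further than 1.5 times. Of 14 alternative values added after the data were seen, 6 moved further: within 100 kb in place of 50 kb, H3K27ac was 40.2 kb at Bach2, 30.9 kb at Irf4, 11.6 kb at Foxo1 and 12.5 kb at Prdm1. Within 25 kb it was 10.8 kb at Irf4, and the Prdm1 cover became 0% with scores of at least 100. Unknown depth limits what the absence of a peak shows.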
